A study of Mus musculus with 3 samples.

Results

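The slides used for retinal pigment epithelium (RPE) carried 402 control spots of the class coded mCM, among 38880 spots in all. They were found by their spot ID and grouped by the gene accession printed beside it. An accession was given for 270 of them, 54 for each of 5 accessions, and 132 carried no gene name. The accessions belonged to B2m (NM_009735), Hprt (NM_013556), Ywhaz (NM_011740), Tbp (NM_013684) and BC031849, for which no symbol was found in the reference table used for names. All 402 IDs were different. Spots with an accession lay in slide rows 1 and 2 of the 48 blocks, and spots without one lay in row 30. The sources used here do not explain the code mCM, and the oligo sequences were not used.

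RNA came from RPE sheets of C57BL/6 mice aged 2.5 to 3 months, with no treatment named, in 3 samples described as independent biological replicates, with no control group. Biotin-labelled copies of the amplified RNA were hybridised to MEEBO slides (mouse exonic evidence-based oligonucleotides) and read in 1 colour. The RPE is the pigmented cell layer behind the photoreceptors. Of 13 RPE marker genes 12 were called by their mouse probes, all but Best1. The other lists gave 3 of 12 photoreceptor genes, 1 of 4 choroid and stroma genes, both measured red blood cell genes and 0 of 3 corneal keratins. Of 8 ubiquitous genes 7 were called, all but B2m. Over all mouse probes the share called was 25.5%. The keratins Krt12, Krt5 and Krt14 had means of 4.98, 3.15 and 4.29 above the threshold on the log2 scale without passing the test. Replicate 3 was scanned in a session of its own, and a session with 1 array allows no test of a batch.

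The 4 genes with a symbol are widely used as expression standards, because nearly every cell makes their transcripts. B2m encodes the light chain of class I histocompatibility molecules, Hprt an enzyme of purine salvage, Ywhaz the zeta form of the 14-3-3 adaptor proteins, and Tbp the TATA-box binding protein of the transcription machinery. Array oligos against one transcript can differ in brightness on the same slide, since each pairs with the labelled RNA to a different degree. A difference between 2 oligos of one gene is therefore a difference between spots, not between amounts of transcript.

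Intensity below means median foreground minus median local background of a spot, on the linear scanner scale. As the threshold of an array served the 95th percentile of the 94 spots of the class coded mCN, taken here as negative controls. It stood at 133, 72.4 and 53.85 on replicates 1, 2 and 3. A spot was called when its normalised log2 intensity lay above the threshold in limma, one-sided, at an adjusted p under 0.05. By this rule 102 of 402 mCM spots were called (25.4%), against 8932 of 35078 mouse probes (25.5%), so the class as a whole stood at the background share. The share was uneven between the accessions. It was 35 of 54 for B2m (64.8%), 33 of 54 for Hprt (61.1%), 26 of 54 for Ywhaz (48.1%), 6 of 54 for BC031849 (11.1%), 0 of 54 for Tbp and 2 of 132 for the spots without a gene name (1.52%). At an unadjusted p under 0.05 there were 2 Tbp spots. Spots of one gene share their target and are not replicates, so no test was made between these shares.

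The B2m spots were the brightest of the class. Their intensity had a lowest value of 6, a median of 8426 and a highest value of 34637 on replicate 1. On replicate 2 these were 8, 3807 and 14903, and on replicate 3 they were 3, 1591.5 and 6530. The spots of this single accession therefore ran from the level of the negative controls to far above the threshold on each array. On replicate 1, 26 spots reached 10000 or more, 8 lay between 1000 and 10000, 4 between 100 and 1000, and 16 below 100. The brightest spot, mCM001444, measured 34637, 14903 and 6530 on replicates 1, 2 and 3. That put it 6.85 ± 0.49 above the threshold on the log2 scale (SD, n = 3, limma adjusted p = 3.36e-06), and it led on all 3 arrays. The dimmest by its mean, mCM000744, measured 14, 11 and 3, below the threshold on every array. The threshold separated spots of similar brightness. The lowest called spot, mCM000223, measured 445, 136 and 69 (0.66 ± 0.44 log2 above the threshold, limma adjusted p = 0.0273), and without replicate 2 its adjusted p was 0.12. The highest spot not called, mCM001208, measured 122, 170 and 103 (limma adjusted p = 0.0941), and without replicate 1 its adjusted p was 0.000362. In all, 35 B2m spots were above the threshold on 3 arrays, 2 on 2 arrays and 17 on none.

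The slides held 2 other sets of spots with the B2m accession. The mouse probe of B2m, mMC006339, measured 73, 41 and 31 and was not called, at 0.44 below the threshold on the log2 scale. Set against it on the same array, 36 B2m mCM spots were higher and 13 lower at an adjusted p under 0.05 in limma, two-sided, and 5 passed in neither direction. Over the 216 mCM spots of the genes with a mouse probe, 69 were higher (31.9%) and 107 lower (49.5%). Since the B2m probe was not above the threshold, its difference from a bright spot is known only as a lower bound. The median B2m mCM spot lay 4.75 above the threshold on the log2 scale. All 13 lower spots were below the threshold on every array, so they and the probe have no measured order. The 20 spots of the class coded mCP with the same accession formed a narrow set. They lay between 17738 and 39132 on replicate 1, between 7688 and 18522 on replicate 2, and between 3257 and 7655 on replicate 3. No B2m mCM spot exceeded the highest of them on any array, and 16, 18 and 16 of the 54 fell within their range on replicates 1, 2 and 3. The SD over spots of log2 intensity, not normalised between arrays, was 3.63, 3.19 and 2.65 for the mCM spots against 0.29, 0.36 and 0.33 for the mCP spots. Relative to the mCP median of the array, 21, 21 and 19 mCM spots reached at least 50%, 12, 12 and 14 lay between 10% and 50%, and 3, 4 and 3 lay between the threshold and 10%. The other 18, 17 and 18 were at or below the threshold. In a comparison chosen after these values had been seen, 4 of 270 mCM spots were higher than the mCP median of their gene (1.48%) and 172 were lower (63.7%) in limma, two-sided. For B2m these counts were 0 and 44, with a median difference of -1.78 on the log2 scale.

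The Hprt spots covered a range of similar width at a lower level. On replicate 1 their lowest, median and highest intensities were 4, 1017.5 and 13910. They were 5, 417.5 and 5717 on replicate 2, and 6, 234.5 and 3146 on replicate 3. On replicate 1, 12 spots reached 10000 or more, 15 lay between 1000 and 10000, 11 between 100 and 1000, and 16 below 100. On replicates 2 and 3, 0 reached 10000, and 21 and 25 lay below 100. The brightest, mCM000730, measured 13910, 5212 and 3146 (5.50 ± 0.25 log2 above the threshold, SD, n = 3, limma adjusted p = 1.47e-06). The dimmest, mCM000357, measured 8, 8 and 6. Each Hprt spot was on one side of the threshold on every array: 34 were above it on all 3 and 20 on none. The lowest called spot, mCM000115, measured 224, 95 and 66 (limma adjusted p = 0.0285), and its adjusted p was 0.127 without replicate 1 and 0.113 without replicate 2. The spot just outside, mCM000716, measured 143, 102 and 54 (limma adjusted p = 0.39) and lay beside a B2m mCP spot of 31371, 16804 and 6772.

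Hprt had 2 mouse probes, and they differed. One, mMC006441, measured 461, 161 and 74 and was called, at 0.76 ± 0.42 above the threshold (SD, n = 3, limma adjusted p = 0.0135). The other, mMA032723, measured 35, 27 and 7 and was not called. Against the median of these probes, 32 Hprt mCM spots were higher and 15 lower, with a median difference of 1.98 on the log2 scale and a highest of 5.55. The 15 lower spots were below the threshold on every array. Against the brighter probe alone the median difference was 1.17. The Hprt mCP spots lay between 4162 and 15300 on replicate 1, between 1599 and 6507 on replicate 2, and between 754 and 3437 on replicate 3. Of the mCM spots, 21, 20 and 22 fell within that range and none exceeded it. The steps below it were filled more evenly than for B2m. At least 50% of the mCP median was reached by 19, 18 and 18 spots, 7, 9 and 9 lay between 10% and 50%, 8, 7 and 7 between the threshold and 10%, and 20 on each array were at or below the threshold. Against the mCP median 1 spot, mCM000730, was higher, by 0.33 on the log2 scale (limma adjusted p = 0.0437), and 42 were lower, with a median difference of -3.22.

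The Ywhaz spots were dimmer, and their median on replicate 3 lay at the threshold. Their lowest, median and highest intensities were 9, 292.5 and 1726 on replicate 1, 1, 121 and 1038 on replicate 2, and 9, 54 and 1195 on replicate 3. On replicate 1, none reached 10000, 13 lay between 1000 and 10000, 20 between 100 and 1000, and 21 below 100. In all, 27 spots were above the threshold on 3 arrays, 4 on 2, 1 on 1 and 22 on none. Leaving out replicate 2 lowered the number of called spots to 16, against 26 with all arrays. The spot with the highest mean, mCM001275, measured 1179, 1038 and 1195 (3.14 ± 0.82 log2 above the threshold, SD, n = 3, limma adjusted p = 0.000478). It was the 9th brightest Ywhaz spot on replicate 1 and led on replicates 2 and 3. Without it, the highest Ywhaz spots were at 1726, 638 and 181, the first and second of them the spot mCM000762, which measured 162 on replicate 3. The dimmest, mCM000300, measured 16, 1 and 17. The lowest called spot, mCM000702, measured 198, 111 and 60 (limma adjusted p = 0.0458), and its adjusted p was 0.126 without replicate 1 and 0.254 without replicate 2. A brighter spot, mCM000384, at 565, 191 and 56, was not called (limma adjusted p = 0.057), and its adjusted p without replicate 3 was 0.00174.

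Among the Ywhaz mCM spots more were called lower than higher against their mouse probe. This probe, mMC020595, measured 355, 307 and 215 and was called, at 1.36 ± 0.41 above the threshold (SD, n = 3, limma adjusted p = 0.00115). Against it 1 mCM spot, mCM001275, was higher, 27 were lower and 26 passed in neither direction. Each of the 26 lay above the probe on replicate 1 and below it on replicate 3. For mCM000762 the difference was 1.92, 0.96 and -0.38 on replicates 1, 2 and 3. The median difference was -0.99 on the log2 scale and the highest was 1.78. Since 22 of the 54 Ywhaz spots were below the threshold on every array, no lowest size is given. The Ywhaz mCP spots lay between 246 and 1746, between 97 and 636, and between 33 and 208 on replicates 1, 2 and 3, and 27, 26 and 32 mCM spots fell within that range. Here the mCP set leaves little room below it, since the threshold itself amounted to 10.4%, 17.3% and 42.6% of the mCP median. Against the mCP median 1 spot, mCM000762, was higher, by 0.41 on the log2 scale (limma adjusted p = 0.045), and 38 were lower. The difference of mCM001275 from the mCP median was -0.11, 1.20 and 2.79 on the 3 arrays and did not pass (limma adjusted p = 0.177).

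BC031849 had few spots above the threshold. The lowest, median and highest intensities were 6, 24 and 566 on replicate 1, 1, 16.5 and 252 on replicate 2, and 3, 16.5 and 139 on replicate 3. The brightest spot by mean, mCM000200, measured 564, 252 and 139 (1.26 ± 0.16 log2 above the threshold, SD, n = 3, limma adjusted p = 0.000121). The lowest called spot, mCM000636, measured 262, 150 and 97 (limma adjusted p = 0.000713). A spot that was brighter on replicate 1 but not on the others, mCM000264, measured 412, 125 and 43 and was not called (limma adjusted p = 0.22), with an adjusted p of 0.0132 without replicate 3. The dimmest, mCM000261, measured 6, 11 and 3. All 6 spots that exceeded the threshold on every array were called, and 43 of the 54 were above it on none. The count rests on the percentile of the mCN spots taken as threshold, with 15 called at the 90th and 0 at the 99th. No mouse probe carried this accession. The BC031849 mCP spots lay between 118 and 1239 on replicate 1, between 49 and 413 on replicate 2, and between 28 and 266 on replicate 3, so the mCP set itself reached below the threshold. Of the mCM spots, 12, 13 and 16 fell within that range. In limma 0 were higher than the mCP median and 48 were lower. No size is given for this difference, since most of the mCM spots were below the threshold.

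For Tbp neither the mCM nor the mCP spots stood above the threshold as a set. The mCM spots had lowest, median and highest intensities of 5, 15 and 178 on replicate 1, 4, 13.5 and 101 on replicate 2, and 6, 13 and 77 on replicate 3. The 2 spots above the threshold on all arrays were mCM000403, at 152, 93 and 77 (0.24 ± 0.14 log2 above the threshold, SD, n = 3, limma adjusted p = 0.0707), and mCM000362, at 178, 101 and 59 (0.22 ± 0.11, limma adjusted p = 0.0784). The other 52 were below it on every array, and none of them exceeded 42, 28 and 34. The dimmest, mCM000506, measured 8, 7 and 6. The 20 Tbp mCP spots lay between 17 and 55 on replicate 1, between 10 and 28 on replicate 2, and between 11 and 27 on replicate 3, all below the threshold. These 2 mCM spots were the Tbp spots counted as higher than the mCP median, with no size given because the mCP spots were not above the threshold. The 3 Tbp mouse probes measured 248, 87 and 56 (mMA033304), 177, 88 and 48 (mMC005134) and 18, 15 and 17 (mMR028304). None was called. Against their median 0 mCM spots were higher and 52 were lower in limma, and all 52 were below the threshold on every array, so no size is given.

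The 132 spots without a gene name had medians of 12, 11 and 12.5, against 13, 12 and 14 for the mCN spots. Their upper end was lower. The brightest measured 266, 121 and 98, against 1623, 729 and 265 for the brightest mCN spots. The brightest, mCM038325, was one of the 2 called, at 0.58 ± 0.09 above the threshold on the log2 scale (SD, n = 3, limma adjusted p = 0.00146), and its brightest neighbour measured 12, 11 and 20. The other, mCM038052, measured 250, 118 and 87 (0.51 ± 0.04, limma adjusted p = 0.00186), and with median scaling or no normalisation between arrays its adjusted p was 0.0908. Neither was called with the 99th percentile of the mCN spots as threshold. The next, mCM038391, measured 91, 64 and 32 and was one of 130 below the threshold on every array, none of which exceeded 101, 64 and 43. The dimmest, mCM038294, measured 5, -2 and 7.

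On each array the median of the mCM spots was also set against the median of the mCN spots. With the accessions pooled, the difference in log2 intensity was 2.09, 1.60 and 0.89 on replicates 1, 2 and 3 (mean 1.53 ± 0.60, SD, n = 3). The mean was 0.46 with the foreground alone or with normexp in place of plain subtraction. By plain subtraction it was 9.34, 8.31 and 6.82 for B2m, 6.29, 5.12 and 4.06 for Hprt, and 4.45, 3.33 and 1.95 for Ywhaz. It was smaller for BC031849, at 0.88, 0.46 and 0.24, and changed sign between arrays for Tbp, at 0.21, 0.17 and -0.11. For the spots without a gene name it was -0.12, -0.13 and -0.16. The order B2m, Hprt, Ywhaz, BC031849, Tbp was the same on all 3 arrays. The lowest two-sided p that an exact sign permutation over 3 arrays can reach is 0.25, so no test was made. The differences were largest on replicate 1 and smallest on replicate 3 for every accession. The mouse probes above the threshold on all arrays moved the same way, with a median ratio of replicate 1 to replicate 3 of 3.12, and the part of overall brightness in the differences was not tested.

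The brightness order of the spots within a gene was close to the same on the 3 arrays for B2m, Hprt and Ywhaz. Over the 54 spots of a gene, Spearman's rho between replicates 1 and 2, 1 and 3, and 2 and 3 was 0.98, 0.97 and 0.98 for B2m, 0.99, 0.99 and 0.99 for Hprt, and 0.96, 0.96 and 0.96 for Ywhaz. It was 0.80, 0.71 and 0.64 for BC031849 and 0.28, 0.49 and 0.20 for Tbp. These are descriptions over spots that share a target and, on each array, a library, and carry no p. The spots include those above the threshold on no array: 17 for B2m, 20 for Hprt, 22 for Ywhaz, 43 for BC031849 and 52 for Tbp. Of the 10 brightest spots on each array, 7 were shared by the 3 arrays for B2m, 9 for Hprt, 9 for Ywhaz, 8 for BC031849 and 4 for Tbp. After normalisation between arrays, the spread over the spots of one gene exceeded the median spread of one spot over the arrays. The SD over B2m spots was 3.33, 3.22 and 2.97 on the log2 scale, against a median SD over the arrays of 0.46 for a single spot. The same pair was 2.74, 2.57 and 2.47 against 0.26 for Hprt, and 1.40, 1.25 and 0.98 against 0.41 for Ywhaz. These medians cover all 54 spots of a gene, of which 22 Ywhaz spots were below the threshold on every array.

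The change in brightness between arrays differed by gene, and the medians of the mCM and mCP spots lay close together for B2m, Hprt and Ywhaz. Among spots above the threshold on all arrays, the median ratio of replicate 1 to replicate 3 was 5.71 for 35 B2m mCM spots against 5.58 for its 20 mCP spots. It was 4.71 for 34 Hprt mCM spots against 4.74 for its mCP spots, and 9.05 for 27 Ywhaz mCM spots against 9.19 for 18 mCP spots. For BC031849 it was 4.20 for 6 mCM spots against 5.72 for 17 mCP spots. The ratio of 3.12 given above was a median over 9549 mouse probes. The mouse probes of these genes did not all follow their control spots. The called Hprt probe had a ratio of 6.23, against 4.24 to 5.56 over the Hprt mCP spots and 2.65 to 6.27 over the Hprt mCM spots. The Ywhaz probe had 1.65, below every Ywhaz mCP spot, whose ratios ran from 7.06 to 11.3. The Tbp probe mMA033304, not called but above the threshold on all arrays, had 4.43, against a median of 2.50 for 2 Tbp mCM spots. Each array held 1 sample, so these ratios compare single samples and were not tested.

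A pair of Ywhaz spots departed from this pattern. The ratio of replicate 1 to replicate 3 ran from 0.987 to 11.0 over the 27 Ywhaz spots, and from 5.68 to 11.0 over the 25 that remain without mCM001275 and mCM000702. Both lay directly beside a spot over 40000 on replicate 1. Over all accessions, 14 spots above the threshold on every array had such a neighbour, and 2 of these departed from the median log2 ratio of their gene by over 1. Among the 90 without such a neighbour 0 did. The limit of 40000 was not planned and the 2 spots had been picked for their departure, so these counts are a description and test nothing. The median departure of the 14 was 0.11. The next largest departure, -0.83 for the Hprt spot mCM000716, went with a neighbour of 31371 on replicate 1, under that limit. A bright neighbour did not always go with a departure, as for mCM000762, which had one too. Such a neighbour was present for 9 B2m, 5 Hprt, 10 Ywhaz, 8 BC031849 and 6 Tbp spots, and for 0 of the spots without a gene name. Of these, 5 B2m, 4 Hprt and 5 Ywhaz spots were called, and no BC031849 or Tbp spot was. Without all spots that had such a neighbour, a choice made after the values had been seen, 88 mCM spots were called, of which 30 belonged to B2m, 29 to Hprt and 21 to Ywhaz. Saturation was found for 0 mCM spots. The scanner software had marked 169, 153 and 133 of the mCM spots on replicates 1, 2 and 3, and none of the called spots carried such a mark on any array.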

How the data were processed

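RNA from 3 RPE samples was measured on 3 slides. The authors deposited 1 scanner export per array from GenePix Pro 4.1.1.4, per the file headers, with the linear intensity of every spot (median foreground and median local background), not normalised. The exports also hold a spot flag, a score assigned by the scanner software per the file headers. The deposited value table holds the authors' scaled intensity for 34288 mouse probes and 0 mCM spots, so it was not used for these spots. That table held 1 column of values for each of the 3 samples, with 0 left unmatched to a sample.

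Background correction by normexp (offset 50, fitted on all spots) was done in limma 3.58.1 under R 4.3.3, and intensities were taken to log2 and quantile-normalised over the 35078 mouse probes, 94 mCN and 402 mCM spots. Thresholds were log2 7.15, 7.05 and 7.08. Calls came from an intercept-only limma fit (lmFit, eBayes; one-sided) with Benjamini-Hochberg adjustment over 35480 spots. Differences from the mouse probe (median of the probes with the same accession) were tested within arrays, two-sided, over 216 spots, and differences from the mCP median over 270 spots without normalisation between arrays. Differences from the mCN median used plain subtraction with a floor of 1 before log2. The calls and the differences from the mouse probe were tried on simulated data, and the other steps were not. The p-values cover the spread over 3 samples alone, and the number of arrays limits the precision.

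The sources used here do not explain the class codes, and all calls depend on the use of mCN as negative controls. Every gene with mCM spots is named, with its brightest and dimmest spot and those just inside and outside the threshold. Other spots named were chosen after their values were seen. The mCM spots, the marker lists and the tests were chosen with earlier results of these data known. Gene names came from a RefSeq table of GRCm38.p6, used for names only.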

Additional observations from a re-analysis of the deposited data

Results flagged for a closer look

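A signal appeared in a spot class outside the comparisons. The spot mCA000567, which carries the B2m accession under the class code mCA, measured 165, 192 and 408 on replicates 1, 2 and 3, above the threshold on all 3 arrays. The other B2m spot of that class, mCA000620, measured 132, 205 and 435, just under the threshold on replicate 1. Both were highest on replicate 3, where the B2m mCM spots had their lowest median. A highest value on replicate 3 was also found for mCA spots of Ywhaz, at 22, 15 and 50 (mCA000111) and 67, 53 and 91 (mCA000588), and of Hprt, at 97, 77 and 110 (mCA001302). Of these mCA000111 was below the threshold on every array, mCA000588 on replicates 1 and 2, and mCA001302 on replicate 1. It was not found for the other Hprt spot, mCA000356, at 62, 55 and 56, or for the mCA spots of BC031849 and Tbp.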

How the results depend on the processing

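Of 151 alternative values for counts, medians and spreads, 125 stayed within 1.5 times the count or within 1 SD over the arrays, and 206 of 238 for single spots kept their call. With the 90th percentile of the mCN spots as threshold, 15 BC031849, 2 Tbp and 4 unnamed spots were called, and with the 99th percentile 0, 0 and 0. At the 99th percentile 6 called spots that are named fell below the threshold. They were mCM000223 at -0.16, mCM000636 at -0.18, mCM000115 at -0.53, mCM038325 at -0.24, mCM038052 at -0.32 and mCM000702 at -0.55. The named spots that had been above it without a call fell below it too. With median scaling or no normalisation between arrays, 1 unnamed spot was called. Leaving out 1 replicate gave 16 to 29 called Ywhaz spots and 87 to 107 in all. With foreground alone or normexp, the difference from the mCN median was 0.46 for the accessions pooled and -0.026 or -0.025 for the unnamed spots. With plain subtraction the median difference from the mouse probe, which for B2m and Tbp was not above the threshold, was 6.35 for B2m, 3.11 for Hprt and -2.84 for Tbp, and with the brightest probe 1.17 for Hprt. Only genes with a called mouse probe gave 33 higher and 40 lower spots. The SD over spots, averaged over arrays, was 4.19 for B2m, 3.52 for Hprt, 2.003 for Ywhaz, 1.56 for BC031849 and 0.83 for Tbp with plain subtraction, and 2.85, 2.44 for B2m and Hprt and 0.36 for Tbp without marked spots. The cause was not tested. No paired analysis was possible because there was 1 group. For Tbp, BC031849 and the unnamed spots, signal near the mCN level limits what can be told apart.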
